A study of Caenorhabditis elegans with 2 samples.

Results

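The genes considered here are the homeobox genes of Caenorhabditis elegans outside the Hox cluster, which were set against the binding map of EFL-3 in whole L1 larvae. They were chosen by name, as the protein-coding genes whose symbol begins with ceh, apart from the Hox gene ceh-13, together with 16 homeobox genes named for mutant phenotypes, such as unc-86 and lin-11. This gave 78 of 19973 protein-coding nuclear genes. The map is a chromatin immunoprecipitation with sequencing (ChIP-seq) of strain OP344, which has the mutation unc-119(tm4063) and carries wgIs344, a transgene of F49E12.6 (efl-3) tagged with TY1, EGFP and 3xFLAG, together with unc-119(+). The larvae were of both sexes, 6 hours old and held starved after bleaching, and an antibody against GFP was used for the immunoprecipitation. The samples form 1 group of 2 biological replicates, which leaves no conditions to compare, and no test was made. A strain without the tag was not analysed here, and nor was the control library. Whole larvae were used, so a peak in a few cells and a weak peak in many cells cannot be told apart.

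Homeobox genes encode transcription factors with a homeodomain, a DNA-binding fold. In C. elegans many of them act as terminal selectors, which set and hold the identity of single neuron classes, and others pattern the pharynx, epidermis, muscle and gonad. The classes are named after the domains beside the homeodomain or after relatives in flies and vertebrates (PRD for paired and paired-like, LIM, POU, CUT, SINE for sine oculis, TALE, NKL for NK-like and HOXL for Hox-like genes outside the cluster). Class counts and medians below cover only the genes chosen by name, and further genes of some classes are counted apart further on. EFL-3 is an atypical member of the E2F family, whose members are known for control of cell cycle genes. It has been linked to the Hox protein LIN-39 in the control of cell death, and Hox proteins bind DNA together with TALE homeodomain proteins, the products of unc-62 and ceh-20 among them.

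The sequences under the strongest EFL-3 peaks near homeobox genes are shown first, since EFL-3 is a DNA-binding factor. They are the 6 intergenic or intronic summits among the 12 homeobox genes with the largest pooled signal. The sequences are those of the RefSeq genome for WBcel235, the assembly also called ce11, on the forward strand. They run 100 bp to either side of the summit, which is the point the authors' file marks within a peak, except that the windows at unc-86 and ceh-53 are trimmed at the annotated start of the gene. Capitals mark a match to any of the motifs searched, which are defined after the sequences. The window at ceh-63 is chrX:3678852-3679052, at ceh-48 chrIV:6809906-6810106, at unc-86 chrIII:8216337-8216512, at ceh-53 chrIV:3498029-3498208, at ceh-20 chrIII:6979011-6979211 and at ttx-1 chrV:20061604-20061804.
ceh-63: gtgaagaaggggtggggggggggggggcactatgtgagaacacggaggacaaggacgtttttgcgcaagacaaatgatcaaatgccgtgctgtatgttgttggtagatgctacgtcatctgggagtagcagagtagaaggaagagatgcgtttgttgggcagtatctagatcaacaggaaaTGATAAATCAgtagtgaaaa
ceh-48: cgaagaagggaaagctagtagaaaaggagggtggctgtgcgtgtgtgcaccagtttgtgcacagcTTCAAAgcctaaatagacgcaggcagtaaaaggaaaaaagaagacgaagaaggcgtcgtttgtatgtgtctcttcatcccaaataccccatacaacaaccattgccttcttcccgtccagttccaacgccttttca
unc-86: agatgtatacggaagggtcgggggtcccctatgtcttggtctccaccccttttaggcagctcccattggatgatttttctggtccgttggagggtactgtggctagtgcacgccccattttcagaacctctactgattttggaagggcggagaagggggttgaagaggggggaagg
ceh-53: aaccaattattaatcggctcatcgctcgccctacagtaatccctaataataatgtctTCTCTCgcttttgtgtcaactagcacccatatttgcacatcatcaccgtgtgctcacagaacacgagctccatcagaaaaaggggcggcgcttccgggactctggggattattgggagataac
ceh-20: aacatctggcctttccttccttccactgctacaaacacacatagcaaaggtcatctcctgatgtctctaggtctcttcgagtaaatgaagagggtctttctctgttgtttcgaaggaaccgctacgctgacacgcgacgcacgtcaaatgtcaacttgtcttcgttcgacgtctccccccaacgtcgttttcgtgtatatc
ttx-1: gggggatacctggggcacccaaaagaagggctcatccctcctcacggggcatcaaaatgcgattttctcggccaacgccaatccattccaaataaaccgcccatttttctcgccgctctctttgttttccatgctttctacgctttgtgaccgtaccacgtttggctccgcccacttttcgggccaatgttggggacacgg
In these windows the capitals at ceh-63 mark overlapping matches to TGATNNAT, a form of the site bound by TALE and Hox proteins together, in both directions. Those at ceh-48 mark TTTGAA on the reverse strand, the core of the CHR element found with E2F-type sites at cell cycle genes. Those at ceh-53 mark GAGAGA on the reverse strand, a purine repeat. The windows at unc-86, ceh-20 and ttx-1 held no match to any motif searched.

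Over all homeobox genes most motif counts lay near those of the whole pooled list, and none was tested. The 70 genes with a pooled peak had 68 distinct strongest summits, since ceh-81 shared its summit with ceh-82 and ceh-21 with ceh-39. The E2F consensus, searched as TTTCCCGC, TTTCGCGC, TTTGCCGC or TTTGGCGC on both strands, matched 0 of the 68 windows, against 4.15% of the 30000 pooled windows and 7.44% of the 430 reproducible windows. This says only that those letters are not in the windows, and the share in the pooled list is itself low. TTTGAA matched 24 of the 68 windows (35.3%), against 37.5% of pooled windows, and TGATNNAT matched 8 (11.8%), against 13.8%. The homeodomain core TAATTA matched 6 (8.82%), against 6.4%. The motif whose share lay furthest above that of the pooled list was a run of GAGAGA. It matched 16 (23.5%), against 14.1% of pooled windows and 29.8% of reproducible windows. The homeobox windows hold only the strongest summit of each gene, whereas the pooled list also holds weaker ones. The motif shares are therefore not matched for signal. The median GC content was 41.3% at the homeobox summits, 40.3% in the pooled list and 43.3% in the reproducible set.

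Strong EFL-3 peaks lay near few homeobox genes, in about the share seen over all genes. Of the 78 genes, 2 (2.56%) had a summit of the reproducible set within the gene body or 5000 bp upstream of it, against 3.92% of all protein-coding genes, and both genes, ceh-8 and ceh-63, are described in turn further on. The reproducible set is the authors' thresholded list and comprised exactly the 430 strongest peaks of the 30000 called on the pooled replicates. Signal is the authors' measure of enrichment at each peak, has no unit and serves here to rank peaks within a list. It ran from 32.5 to 508.5 in the pooled list and from 94.8 upwards in the reproducible set. The read depth is unknown from the files used here, so no interval that needs it is given.

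At relaxed peaks the homeobox genes again lay near all genes. A relaxed pooled summit lay in the window of 70 of the 78 (89.7%), against 85.3% of all genes, and the relaxed list reaches far into weak peaks. The largest pooled signal in the window, taken as 0 where no summit lay there, had a median of 47.2 at homeobox genes and 46.2 at all genes. In replicate 1 both medians were 26.7, and in replicate 2 they were 26.1 at homeobox genes and 26.4 at all genes. The median homeobox gene had a larger pooled signal than 52.7% of all genes, with quartiles of 30.7% and 75.5%. It stood above 50.4% of all genes in replicate 1 and above 48.1% in replicate 2.

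**Figure D1:**
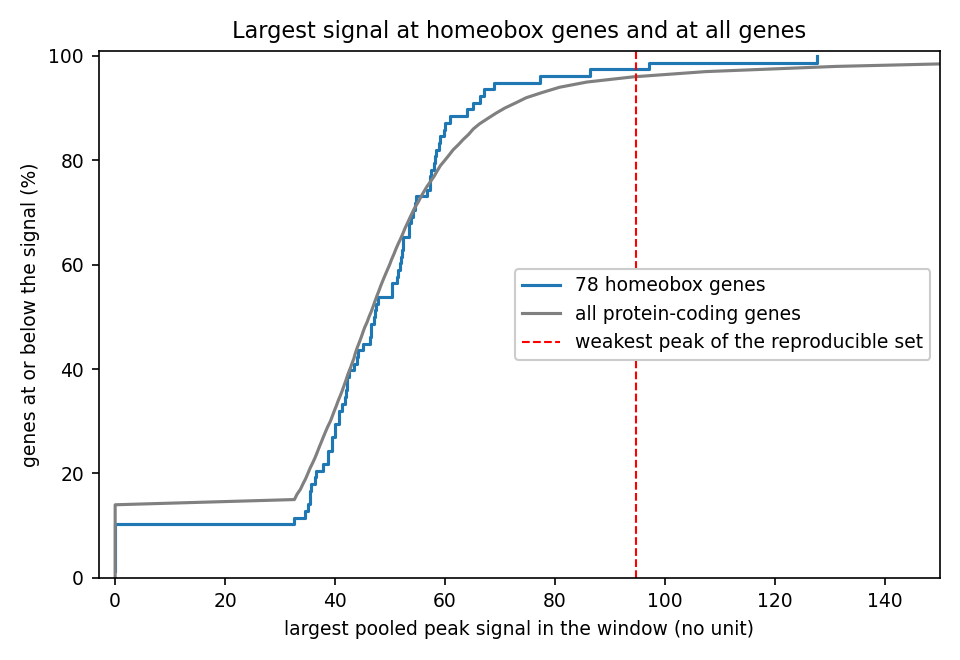
Cumulative share of genes (vertical axis, in percent) at or below a given largest pooled signal in the window (horizontal axis, no unit) for the 78 homeobox genes and for all protein-coding genes, with the dashed line at the weakest peak of the reproducible set. The curves run close together, with medians of 47.2 and 46.2, and 2 homeobox genes lie right of the dashed line.

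Few homeobox genes lay at the upper end. The pooled signal of 4 genes (5.13%) was among the highest 10% of all genes: ceh-8, ceh-63, unc-62 and ceh-48. In each replicate 7 genes (8.97%) were among the highest 10%, and 3 genes (3.85%) did so in both replicates, against 4.88% of all genes. Those 3 were ceh-8, ceh-63 and unc-62. No homeobox gene had a summit among the 430 strongest of both replicates, against 2.37% of all genes, or the same summit within 100 bp in both, against 2.26%. In replicate 1 alone the count was 0, against 3.82%, and in replicate 2 alone it was 2 (2.56%), against 3.64%.

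The 430 strongest peaks of replicate 2 held summits at ceh-8 and unc-62. With so few genes the counts turn on single peaks, and the authors' q-values were below 0.05 for 259 of the pooled peaks. A pooled summit with a q-value below 0.05 lay near 1 homeobox gene, ceh-8, against 2.55% of all genes.

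The paired-like gene ceh-8, a relative of the vertebrate retinal gene Rax, had the largest signal. Its strongest pooled summit had a signal of 127.7 and rank 221, and its largest signals were 51.8 at rank 523 in replicate 1 and 76.8 at rank 125 in replicate 2. The summit, at position 8245561 of chromosome I, lay 5387 bp downstream of the start of ceh-8, in the 3' untranslated region at the far end of the gene. The nearest annotated start belonged to the collagen gene col-63, at 598 bp, and the annotated non-coding RNA ZK265.11 lay within 200 bp. The nearest summit was 32 bp away in replicate 2 and 126 bp away in replicate 1. The other 4 pooled summits in the window of ceh-8 all ranked below the reproducible set.

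The NK-like gene ceh-63 lay just inside the threshold, with a pooled signal of 97.1 at rank 405. Replicate 1 had a summit at the same base, with a signal of 46.9 at rank 763, and replicate 2 had a summit 13 bp away, with a signal of 39.7 at rank 1251. Neither was among the 430 strongest of its list. The summit, at 3678952 on chromosome X, was intergenic and 4894 bp upstream of ceh-63, near the edge of the window, whereas the start of tag-52 was 395 bp away. Both reproducible summits were therefore nearer to the start of another gene than to that of the homeobox gene. When each summit counted for a single gene, that with the nearest start, 0 homeobox genes had a reproducible summit, against 2.02% of all genes.

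The first gene below the threshold was unc-62, which encodes the Meis-type TALE cofactor of Hox proteins. Its strongest pooled summit, at 4507999 on chromosome V, had a signal of 86.4 at rank 574. The largest signals were 45.2 at rank 898 in replicate 1 and 50.5 at rank 407 in replicate 2, from summits 138 bp and 32 bp away. Thus replicate 2, but neither replicate 1 nor the pooled list, placed it among its 430 strongest. It lay in annotated 5' untranslated sequence 10538 bp into the gene, 795 bp from the nearest of the 15 annotated starts of unc-62 transcripts.

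Peaks were spread along unc-62 and the sequence upstream of it, and the window held 14 pooled summits in 18989 bp, or 7.37 per 10 kb. Over the joined windows of all homeobox genes the density was 2.92 per 10 kb, and over those of all genes 3.07. The second strongest unc-62 summit, 12322 bp into the gene, had a signal of 68.8 at rank 1509, with summits 7 bp away in replicate 1 at rank 3765 and 5 bp away in replicate 2 at rank 4266. The next, with a signal of 65.0 at rank 1976, lay 14 bp from an internal annotated start. It matched a summit at rank 618 in replicate 2, 5 bp away, while the nearest in replicate 1 was 1352 bp away. Of the 14 pooled summits, 5 had a summit within 100 bp in both replicates, and 4 had a signal below the median of the pooled list, 41.6.

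**Figure D2:**
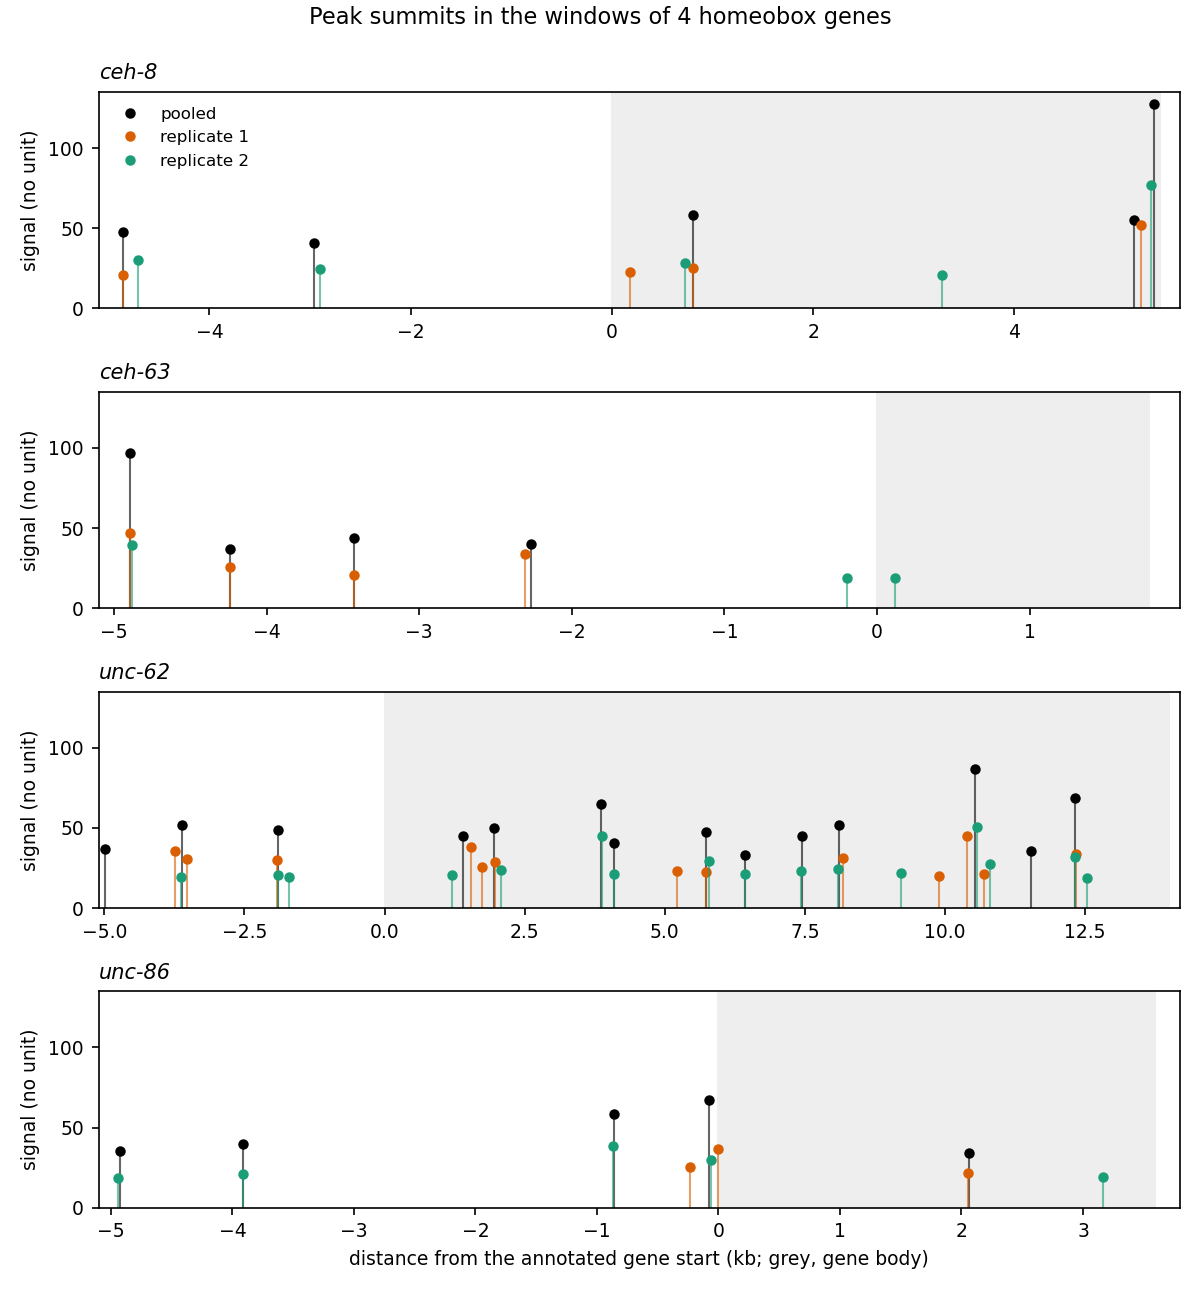
Signal of each summit (vertical axis, no unit) by its distance from the annotated gene start (horizontal axis, kb; grey, gene body) in the windows of ceh-8, ceh-63, unc-62 and unc-86, in the pooled list and in each replicate. The largest signals of ceh-8 and ceh-63 lie at the outer edges of their windows, and the 14 pooled summits of unc-62 run along the gene and the sequence upstream of it.

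The other TALE genes chosen by name showed smaller signals. The 3 of the PBC type, related to vertebrate Pbx and fly extradenticle, encode further partners of Hox proteins. At ceh-20 the pooled signal was 60.9 at rank 2787, from an intergenic summit 773 bp upstream of the start, with signals of 42.03 at rank 1220 in replicate 1 and 29.2 at rank 6355 in replicate 2. Replicate 1 had its summit at the same base, and the nearest in replicate 2 was 275 bp away. At ceh-40 the pooled signal was 40.1 at rank 16956, and at ceh-60 it was 35.6 at rank 23943. The signals of ceh-40 and ceh-60 are below the median of the pooled list, 41.6.

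Among the 6 CUT genes all had a pooled summit, with signals from 46.5 to 77.2 and a median of 52.4. The highest belonged to ceh-48, a ONECUT gene that acts on genes shared by all neurons. Its intergenic summit, at 6810006 on chromosome IV and 2102 bp upstream of the start, had a pooled signal of 77.2 at rank 874. The signal was 43.9 at rank 1007 in replicate 1, from a summit 2 bp away, and 36.1 at rank 2143 in replicate 2, from a summit 64 bp away. The start of ceh-48 was the nearest protein-coding start, and the annotated non-coding RNA C17H12.31 lay within 200 bp of the summit.

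The 3 POU genes had the highest class median, a pooled signal of 65.0, or a standing above 85.8% of all genes, a value that rests on 3 genes. That median is the value of ceh-18, whose window was 19431 bp long, against a median of 7027 bp over all genes. The summit of ceh-6, the third POU gene, was nearer to the start of sec-12. The POU genes stood above 67.7% of all genes at the median in replicate 1, where the TALE genes (70.8%) and CUT genes (68.2%) stood higher, and above 84.8% in replicate 2. The highest was unc-86, a relative of vertebrate Brn3 that sets the fate of touch receptor neurons and other neurons. Its strongest summit lay 76 bp upstream of its start, at 8216412 on chromosome III, with a pooled signal of 67.1 at rank 1703. The annotated non-coding RNA C30A5.11 lay within 200 bp of this summit. The largest signals in the window were 36.4 at rank 2474 in replicate 1 and 38.3 at rank 1565 in replicate 2, the last from a separate summit further upstream. A second pooled summit 863 bp upstream had a signal of 58.5 at rank 3414. The gene that acts with unc-86 in touch neurons, mec-3 of the LIM class, had no pooled summit and a single relaxed signal of 23.8 at rank 14437 in replicate 2.

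The gonadal sheath gene ceh-18, also a POU gene, had a pooled signal of 65.0 at rank 1980, with 31.0 at rank 5471 in replicate 1 and 36.2 at rank 2118 in replicate 2. Its summit lay in the 3' untranslated region, 13777 bp from its start, and was nearer to the start of ttr-48.

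The PRD class had 12 genes, 11 of them with a pooled summit, and a median pooled signal of 55.7, above 73.1% of all genes. In the replicates the class stood above 52.5% of all genes in replicate 1 and above 71.2% in replicate 2. After ceh-8 came ceh-36, an Otx-like gene of the AWC and ASE sensory neurons, with a pooled signal of 66.4 at rank 1781, 34.8 at rank 3134 in replicate 1 and 33.02 at rank 3499 in replicate 2. Its summit lay 1000 bp into the gene in 5' untranslated sequence, with replicate summits 11 bp and 3 bp away. At ceh-36 the replicates gave similar ranks.

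At 3 other PRD genes the replicates differed widely. The Otx-like gene ttx-1, which sets the fate of the thermosensory neuron AFD, had a pooled signal of 60.004 at rank 2987. Its largest signals were 46.4 at rank 797 in replicate 1 but 22.9 at rank 16296 in replicate 2, from a summit 2257 bp from the pooled one. At unc-4, which governs the choice of inputs to motor neurons, the pooled signal was 57.5 at rank 3720, replicate 1 had 41.8 at rank 1255 and replicate 2 had no summit in the window. At ceh-53 the order was the other way round, with a pooled signal of 64.1 at rank 2143, 20.2 at rank 24129 in replicate 1 and 39.2 at rank 1360 in replicate 2. The last of the named PRD genes, unc-30, a Pitx relative of the GABA motor neurons, had a pooled signal of 51.9 at rank 6153.

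**Figure D3:**
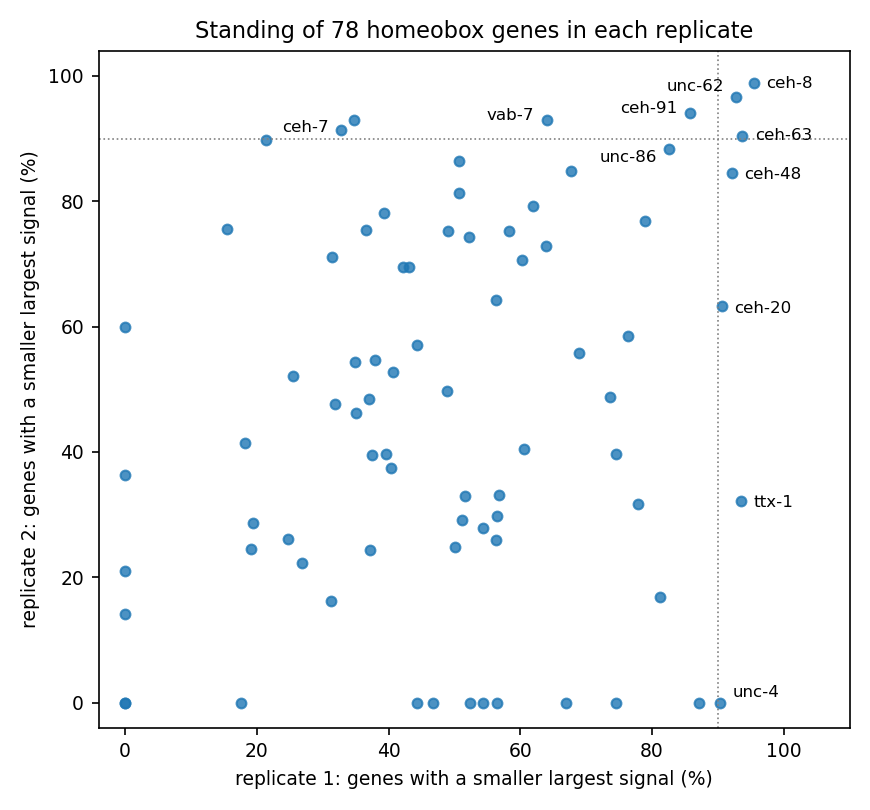
Standing of each of the 78 homeobox genes in replicate 1 (horizontal axis) and replicate 2 (vertical axis), as the percentage of all protein-coding genes with a smaller largest signal in the window, with dotted lines where the highest 10% begin; 0 marks a gene with no summit in that list. Only ceh-8, ceh-63 and unc-62 lie above both dotted lines, and ttx-1 and unc-4 are high in replicate 1 but not in replicate 2.

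Across all homeobox genes the replicates ranked the signals only loosely. Over the 62 genes with a summit in both replicates, Spearman's rho between the 2 largest signals was 0.284, against 0.391 over 15458 of all genes, given as a description over genes that share 2 libraries. The strongest pooled summit was matched within 100 bp in both replicates at 23 of 70 homeobox genes (32.9%), against 41.6% of all genes with a pooled summit. Within 200 bp it was matched at 36 of 70 (51.4%), against 53.2%. Among the 20 homeobox genes with the largest pooled signal, 10 were matched within 100 bp and 13 within 200 bp. The same was not counted over all genes of like signal, so whether these counts are usual is not known.

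Reproducible summits lay near 1 PRD gene and 1 NK-like gene only, and near 3.92% of all genes. The SINE, LIM and Hox-like classes had none, and nor had the CUT, POU, TALE and other classes. The 3 SINE genes, relatives of fly sine oculis, had a median pooled signal of 57.3. They stood at the median above 75.9% of all genes in the pooled list, 58.2% in replicate 1 and 39.5% in replicate 2. Of these genes, ceh-32 had 59.8 at rank 3056, with largest signals at rank 2726 in replicate 1 but 25868 in replicate 2. The pooled signal was 57.3 at rank 3773 for ceh-33. It was 41.9 at rank 14629 for ceh-34, which sets the fate of pharyngeal neurons. The LIM genes, most of them known for roles in neuron identity, had a lower median pooled signal than the SINE genes. Among the 7 LIM genes, 6 had a pooled summit and the median was 51.3. Their median standing was 63.6% in the pooled list, 50.1% in replicate 1 and 48.8% in replicate 2. The highest were lim-4, which sets the AWB olfactory neuron fate, with 58.9 at rank 3294, and lim-6 with 58.4 at rank 3460. The AIY interneuron gene ttx-3 had 51.3 at rank 6502, and lin-11, a gene of the vulva and several neurons, had 40.6 at rank 16240.

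The Hox-like genes outside the cluster were 3 in number, with a median pooled signal of 42.1, above 38.1% of all genes. The even-skipped homologue vab-7, which patterns the posterior, had 57.2 at rank 3815 from a summit 1582 bp upstream. In replicate 2 a summit 5 bp away had a signal of 42.3 at rank 876. The largest signal in replicate 1, 29.99 at rank 6386, came from a separate summit 5579 bp downstream of the start. There the summit nearest to the pooled one was 798 bp away, at rank 29303. The caudal homologue pal-1, also a posterior fate gene, had 42.1 at rank 14395, from a summit in a coding exon of arl-6. In the pooled list pal-1 thus lay near the median peak.

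The 20 NK-like genes had a median pooled signal of 46.4, close to that of all genes, and 19 of them had a pooled summit. After ceh-63 came ceh-7 with 59.1 at rank 3241 and ceh-5 with 58.0 at rank 3559, the summit of the second being nearer to the start of eat-16. At ceh-7 replicate 2 had a summit at the same base, at rank 1123. The nearest summit in replicate 1 was 2041 bp away, and the largest signal there was at rank 16905. The engrailed homologue ceh-16, which acts in seam cells, had 53.9 at rank 5148, with 33.7 at rank 3631 in replicate 1 at the same base. In replicate 2 the largest signal, 28.1 at rank 7537, came from a separate summit further upstream. The replicate 2 summit nearest to the pooled one, 59 bp away, had 20.9 at rank 21537. The distal-less homologue ceh-43 had 50.3 at rank 7145 and 6 pooled summits in its window, or 7.22 per 10 kb, a density near that of unc-62. The pharyngeal muscle gene ceh-22 had 47.4 at rank 9255 and cog-1 had 39.4 at rank 17832. No pooled summit lay near ceh-24, which had a single relaxed signal of 27.2 at rank 9581 in replicate 1.

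The 20 genes of other or divergent classes had the lowest class median, a pooled signal of 38.3, and 15 of them had a pooled summit. They stood above 28.0% of all genes at the median in the pooled list, 37.7% in replicate 1 and 28.2% in replicate 2. At the median or above among all genes stood 5 of the 20, the highest being ceh-91, with a pooled signal of 68.9 at rank 1497 from a summit in a coding exon of Y66A7A.4, and ceh-100, with 58.2 at rank 3493. In all, 8 homeobox genes had no pooled summit, namely ceh-17, ceh-24, ceh-75, ceh-83, ceh-84, ceh-87, ceh-93 and mec-3. Of these, ceh-75 and ceh-84 had no summit in either replicate as well, as did 946 of all genes.

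**Figure D4:**
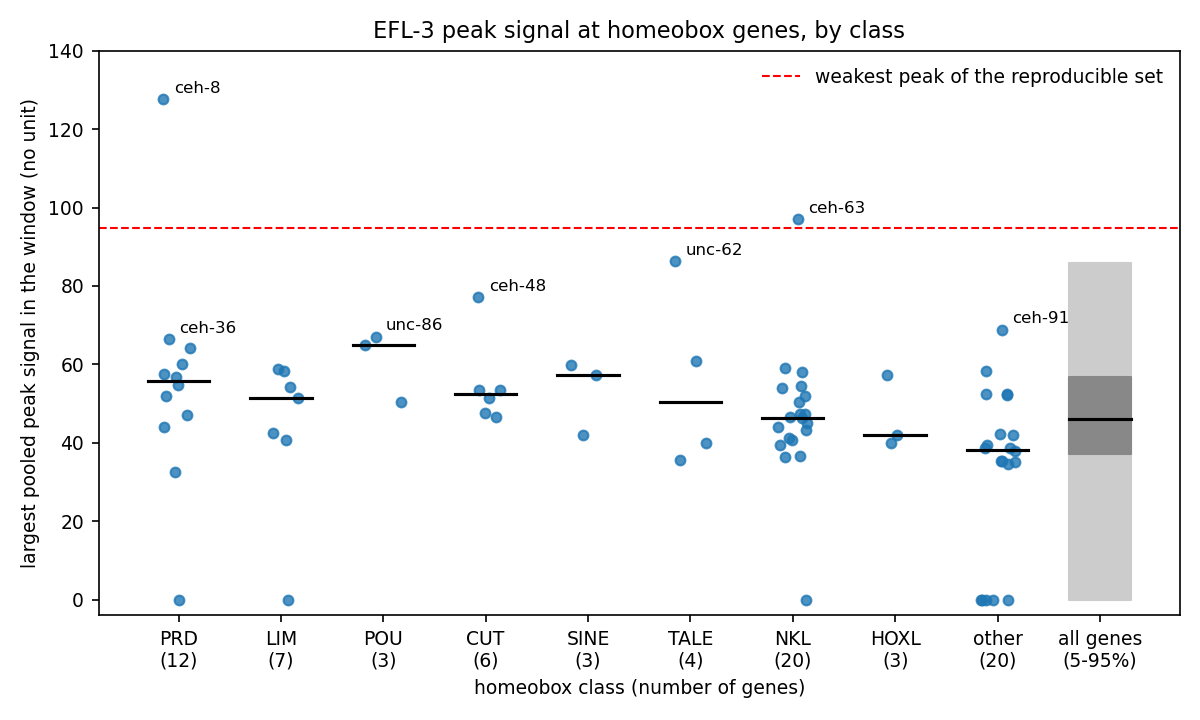
Largest pooled signal in the window (vertical axis, no unit) of each homeobox gene by class (horizontal axis, with the number of genes), with the class median as a line; for all genes, the line is the median, the dark bar the span between the quartiles and the light bar the range from 5% to 95%. Only ceh-8 and ceh-63 lie above the dashed line at the weakest reproducible peak.

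Measured from the outermost annotated start of each gene, the strongest summits of homeobox genes were not gathered at the start. Of the 70 genes with a pooled summit, 15 (21.4%) had the strongest from 1000 bp upstream to 500 bp downstream of the gene start, against 23.6% of all genes. It lay further upstream at 33 (47.1%), against 51.1%, and further downstream at 22 (31.4%), against 25.3%. The median position was 724.5 bp upstream at homeobox genes and 1072 bp upstream at all genes. Some downstream summits lay closer to an internal start of the same gene, 77 bp away at ceh-22 and 284 bp at ttx-1. Others did not, such as that of ceh-36 at 1000 bp. Placement of the strongest summit against every start was not counted. A promoter window drawn around every start held a relaxed summit, not always the strongest, at 53.8% of homeobox genes, against 43.6% of all genes. The start nearest to the summit was the gene's own at 44 of 70 (62.9%), against 47.9% of all genes. It was so at 16 of the 20 with the largest pooled signal, with no count over all genes of like signal to set beside it. Of the 68 distinct summits, 21 were intergenic, 20 lay in introns, 19 in coding exons, 5 in 3' and 3 in 5' untranslated regions. An annotated non-coding gene lay within 200 bp of 12 of them. The same was not counted over all pooled summits, so whether these numbers are usual for the list is not known.

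The windows of homeobox genes had a median length of 8277 bp, against 7027 bp for all genes. Among genes whose window length lay between the quartiles of the homeobox genes, 6880 to 9881 bp, 0 of 38 homeobox genes had a reproducible summit, against 4.08% of all such genes. A relaxed summit lay near 34 of these 38 (89.5%), against 88% of all such genes. Counted per length, the joined homeobox windows held 2 reproducible summits, or 2.93 per Mb, against 4.32 per Mb in those of all genes.

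On the X chromosome, which carries 22 of the homeobox genes, 1 (4.55%) had a reproducible summit, against 2.97% of its genes. On the autosomes it was 1 of 56 (1.79%), against 4.07%. The median standing among all genes was lowest for the 15 genes of chromosome II, at 30.8%, where that of all chromosome II genes was 45.1%. It was highest for the 10 genes of chromosome III, at 65.4%, where that of all its genes was 62.4%.

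A narrower window held still fewer strong summits. In the promoter window, which reached 1000 bp upstream and 500 bp downstream from each annotated start, 0 homeobox genes had a reproducible summit, against 1.93% of all genes, and 42 (53.8%) had a relaxed one, against 43.6%. Within the gene body and 2000 bp upstream it was 1 gene, ceh-8, against 2.67%, and ceh-8 was also the 1 gene within the gene body alone, against 0.586%. Among the 200 strongest pooled peaks there was none near a homeobox gene, against 1.97% of all genes, while the 10000 strongest lay near 42 (53.8%), against 49.3%.

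The other homeobox genes, 20 genes named outside the rule, the Hox genes included, were counted beside these. None had a reproducible summit and all 20 had a relaxed one. The highest was lin-39, with a pooled signal of 93.6 at rank 456, just below the weakest reproducible peak. Their median standing among all genes was 65.9% in the pooled list, 66.2% in replicate 1 and 54.9% in replicate 2, and the difference from the 78 genes was not tested.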

How the data were processed

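Peak lists from whole larvae of 1 group with 2 biological replicates were used on the ce11 build, per the labels. Per the deposited files, the authors made a list for each replicate, a pooled list and a reproducible set, whose name in their file descriptions refers to the irreproducible discovery rate (IDR). Each peak has a deposited signal value, a deposited −log10 q-value and a summit offset. For the aligner, peak caller and IDR threshold, names and settings were not given in the sources used here, and read depth and the control library were not analysed here. Annotated genes were those of WBcel235, which is the ce11 assembly, in Ensembl release 115, with sequence from RefSeq. The summit with the largest signal in the gene body or 5000 bp upstream stood for each gene, and a gene's standing is the percentage of all 19973 protein-coding nuclear genes with a smaller signal. Strong peaks of a replicate are as many as the reproducible set holds. With 1 group, counts and medians are given beside those of all genes, with no test.

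The genes named are those with a reproducible summit, the 20 with the largest pooled signal, those just above and below the reproducible threshold, those strong in a replicate, and a written list whatever their values. Genes named only as having no pooled summit, as sharing a summit or as neighbours were added for completeness. Genes, classes, motifs and rules were chosen with earlier results of these data known. Alternatives were 3 other windows, nearest-start assignment, stricter thresholds, each replicate alone, matching of summits between replicates, a background matched on window length, and 50 bp motif windows. Scripts ran in Python 3.11.15 with numpy 2.4.6 and pandas 2.3.3, and were tested on simulated peaks. The homeobox genes ceh-44 and hlx-1 were not found by name in the annotation and were not used here.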

Additional observations from a re-analysis of the deposited data

How the results depend on the processing

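The count of homeobox genes with a reproducible summit, 2, was 0 in the promoter window, 1 in the gene body and 2000 bp upstream, 1 in the gene body alone, 0 with each summit given to the nearest start, 0 among the 200 strongest pooled peaks and 1 at a q-value below 0.05. With a replicate left out it ran from 0 to 2, as did the count of genes strong in both replicates, 0 with both. The 70 genes with a relaxed summit became 42 in the promoter window and 42 with the 10000 strongest peaks. The median standing of 52.7% became 61.4% in the promoter window, 49.5% with 2000 bp upstream and 55.0% in the gene body alone. It ran from 48.1% to 50.4% with a replicate left out. In the promoter window only 43.6% of all genes had a relaxed summit, and in the gene body alone 51.8%. Any gene with a summit there stood above all genes without one, so 61.4% and 55.0% cannot be set beside 52.7%. In windows of 50 bp to either side, TTTGAA matched 15 summits (22.1%) in place of 24, against 20.7% of pooled windows of that size. TGATNNAT matched 3 (4.41%) in place of 8, against 6.89%. The 23 genes whose strongest summit was matched in both replicates became 36 at 200 bp in place of 100 bp, an alternative added after seeing the data. The cause was not tested, beyond that narrower windows and shorter lists hold fewer summits by construction. No paired analysis was possible because there was only 1 group. Signal values carry no error per peak, each replicate is 1 library, and read depth is unknown, so a rank that differs between replicates has no interval.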
